A study of Mus musculus with 9 samples.

Results

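The genes that answer to the transcription factor NRF2, together with the glutathione S-transferases, were examined in MLP29, a mouse liver progenitor cell line. With earlier results of these data known, members were taken by gene symbol. They are all Gst genes of the alpha, kappa, mu, omega, pi, theta and zeta classes, Mgst1 to Mgst3, and 26 genes listed by name. Of 12393 genes measured by at least 1 probe set of their own, 44 belong to the group. Ggt1, Ftl1 and G6pdx, 3 of the genes listed by name, are named only together with other genes or by no probe set, and so have no value here.

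NRF2, encoded by Nfe2l2, is kept low by KEAP1, which hands it to a ubiquitin ligase for destruction. When KEAP1 is modified by oxidants or electrophiles, NRF2 accumulates, pairs with a small MAF protein and binds antioxidant response elements in genes for glutathione synthesis, conjugation, export and NADPH supply. In liver, this program and the glutathione S-transferases, which attach glutathione to reactive compounds, are central to the handling of toxins. NRF2 activity is mainly set at the level of the protein, which was not measured here.

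Total RNA of 9 cultures was hybridised to Affymetrix Mouse430A_2 arrays, 1 array per culture. In each of 3 experiments, cells were first kept in 0.1% serum for 16 h or longer. They were then given no agent, HGF/SF1 at 20 ng/ml or a function-blocking antibody against α5β1 integrin (clone BMB5) at 10 µg/ml. HGF/SF1 is a growth factor that makes epithelial cells scatter, and α5β1 integrin is a receptor for fibronectin. All groups share the cell line, the medium and the starvation. The labels call the cells without agent only control and the array methods call them untreated, while the general culture methods mention a control IgG or solvent for control experiments. No array is labelled as given a control antibody, so in these arrays the addition of an antibody and the block of the integrin cannot be told apart.

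The values are log2 probe set summaries, and a gene is represented by its probe set with the highest mean over all arrays. Array medians lay between 5.91 and 6.08. The control probe sets for the 3′ and 5′ ends of Actb differed by 0.20 to 0.87 on the log2 scale. This difference was largest in untreated array 2, beside 0.37 in antibody array 2. For Gapdh it was -0.32 to -0.062. Whether it bears on calls that depend on untreated array 2 was not tested. The antibody array of experiment 1 was closer to its untreated array (r = 0.992 over probe sets) than those of experiments 2 and 3 (r = 0.978 and 0.983). Krt8, Krt18, Krt19 and Cdh1 were bright, and Krt7 was weaker, at 6.26 to 7.03. These 5 of 9 measured liver progenitor and biliary markers lay above the median brightness of all probe sets, while Epcam, Sox9, Afp and Prom1 lay below it. Of other cell types, 1 of 11 hepatocyte markers (Hnf4a), 2 of 9 leukocyte markers (Cd68 and Cd14), 0 of 10 fibroblast markers and 1 of 6 endothelial markers (Eng) lay above it. Cd68, a lysosomal glycoprotein of macrophages, was called higher after the antibody, by 2.60 on the log2 scale, while Cd14 had a difference of -0.54 and was not called. The mean log2 value of the 9 measured leukocyte genes was 5.23 to 5.30 in untreated, 5.33 to 5.40 in HGF/SF1 and 5.48 to 5.59 in antibody arrays. Without Cd68 it was 5.11 to 5.32, 5.21 to 5.35 and 5.10 to 5.34, and the 3 conditions overlapped. The defining genes Ptprc and Adgre1 stayed between 3.02 and 4.42 in every array.

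Below, a gene is called higher or lower where limma, fitted to all 22626 probe sets, gave an unadjusted p under 0.05. After antibody treatment, 7 of 44 members were called, 2 higher and 5 lower than in untreated cells. The cystine importer gene Slc7a11 and the mitochondrial superoxide dismutase gene Sod2 were higher, while the transferase genes Gsto1, Gsta4 and Mgst3, the exporter gene Abcc3 and the epoxide hydrolase gene Ephx1 were lower. Of all genes, 4.68% were called higher and 7.92% lower in the same comparison, beside 4.55% and 11.4% of the members. Among the brighter genes, with a probe set above the median, the shares were 6.84% and 13%. The same members were called there, 2 and 5 of 30 (6.67% and 16.7%). Both counts were thus near the shares of the brighter genes. None of the 44 members passed an adjusted p under 0.05 in limma (Benjamini-Hochberg over all probe sets), against 0.0242% of genes higher and 0.0161% lower. HGF/SF1 gave no called member.

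The median log2 difference between antibody-treated and untreated cells was -0.034 over the members and -0.0018 over all genes. Over the 30 brighter members it was -0.11, beside -0.030 over the brighter genes. By experiment, the members' median was -0.054, -0.14 and 0.060, with 28, 27 and 15 of 44 members below 0. The direction of the group as a whole was therefore not the same in the 3 experiments. With the experiment as a fixed block, 2 members were called higher and 9 lower, where 7.81% and 10.7% of all genes were called. The fixed block removed Slc7a11 and added Gstm5 among the higher and Gstm1, Gstm2, Pgd and Srxn1 among the lower. With the experiment as a random block, 3 members were called higher and 6 lower, where 6.94% and 10.3% of all genes were called, and only Gstm5 and Srxn1 were added. When each array was first centred on its median, 3 members were called higher and 3 lower, Gstm5 being gained and Ephx1 and Mgst3 lost. The share of all genes called was not counted with centred arrays. In bulk RNA, fewer cells that express a gene and less RNA of it per cell cannot be told apart.

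**Figure D1:**
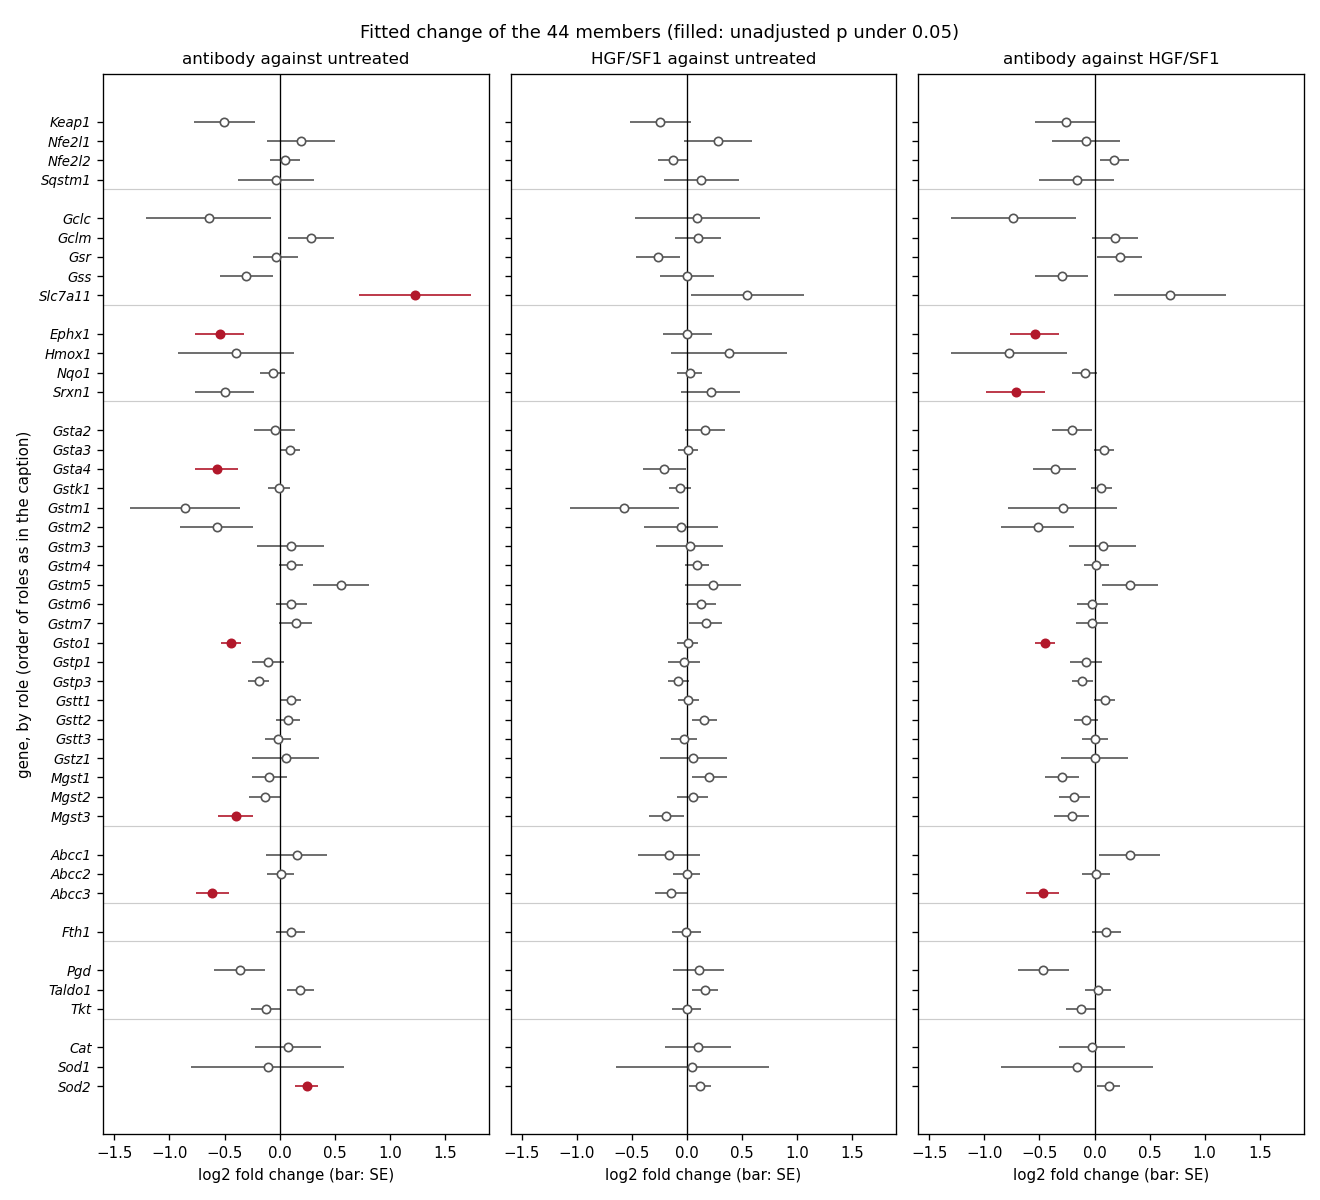
Fitted log2 difference (x axis, with the standard error as bar) of the 44 members (y axis), from top to bottom by role: NRF2 and its control, glutathione synthesis, quinone, heme, epoxide and sulfiredoxin enzymes, glutathione S-transferases, export, iron storage, NADPH supply, superoxide and peroxide removal. Filled points passed an unadjusted p under 0.05 in limma, which 7, 0 and 4 members did from left to right.

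The antioxidant response element was looked for in the promoters, because it links these genes to NRF2. Windows from 250 bases before to 50 after a transcription start were taken from RefSeq (mouse build GRCm38.p6), which gave 51 windows for 37 of the 44 members. Abcc1, Abcc3, Gclc, Gsr, Gsta4, Gstt2 and Hmox1 had none. The letters TGACNNNGC, searched on both strands, were found in 10 of the 51 windows (19.6%) and in 12.4% of the 32851 windows of all genes. Counted by gene, 10 of 37 members held them (27.0%), beside 16.3% of measured genes. Sequences are shown for some of the members with a match. They are those of the sulfiredoxin gene Srxn1 (chr2:152105542-152105570), Pgd of the pentose phosphate pathway (chr4:149166061-149166089), Gstm5 (chr3:107895802-107895830), Gclm (chr3:122245413-122245441) and Nfe2l2 itself (chr2:75704885-75704913). Each is written 5′ to 3′ on the strand that holds the letters, which is the plus strand for Gstm5 and the minus strand for the others, with the match in capitals.
Srxn1: tgtctcactcTGACCTAGCtgcccactgc
Pgd: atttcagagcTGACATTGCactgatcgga
Gstm5: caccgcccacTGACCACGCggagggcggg
Gclm: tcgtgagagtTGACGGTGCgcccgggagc
Nfe2l2: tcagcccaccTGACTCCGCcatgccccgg
The other windows with a match belong to Abcc2, Gsta3, Gstm7, Mgst1 and Sod1. Of the 6 called members that have a window, 1, Srxn1, holds the letters. A match is a run of letters and not a measured binding site, and elements further from the start lie outside these windows.

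Of the members, the genes of NRF2, its inhibitor KEAP1, the related factor NRF1 and p62 did not pass the test in any comparison. Nfe2l2 measured 10.38, 10.52 and 10.30 in untreated cells of experiments 1, 2 and 3, 10.13, 10.38 and 10.30 after HGF/SF1, and 10.32, 10.70 and 10.32 after the antibody. The 3 groups overlapped, and the log2 difference was 0.051 (SE 0.13, n = 3) for antibody and -0.13 (SE 0.13) for HGF/SF1 against untreated cells. Keap1, the gene of its inhibitor, measured 8.37, 8.47 and 8.22 in untreated cells, 7.69, 8.47 and 8.19 after HGF/SF1, and 8.17, 8.14 and 7.25 after the antibody. All 3 antibody arrays lay below all untreated ones, most of all in experiment 3, and the difference of -0.50 (SE 0.28, adjusted p = 0.551 in limma) missed the threshold. The other probe set of Keap1 gave -0.40 (SE 0.34), with experiment 2 going the other way.

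Nfe2l1, which encodes the related factor NRF1, had a log2 difference of 0.20 (SE 0.31) after the antibody and 0.28 (SE 0.31) after HGF/SF1. Sqstm1, whose product p62 sequesters KEAP1 and is also an NRF2 target, had differences of -0.032 (SE 0.34) and 0.13 (SE 0.34). For both genes the spread between experiments was larger than these differences.

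**Figure D2:**
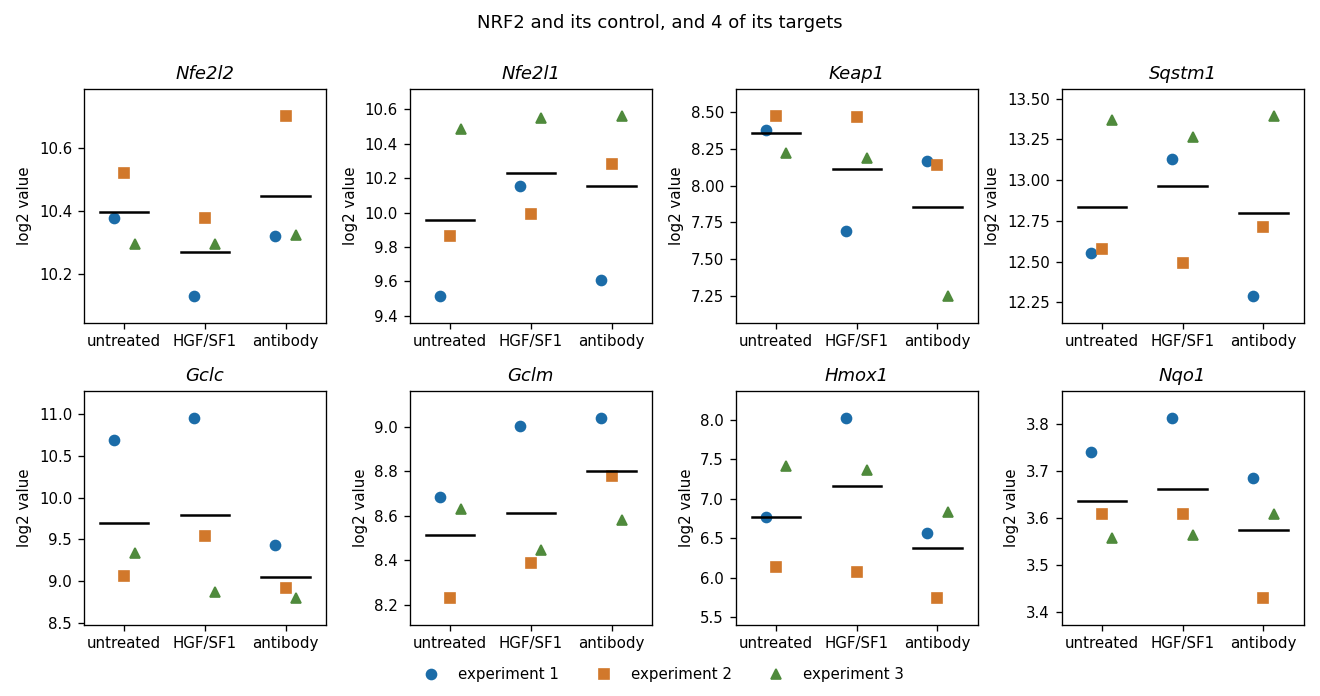
Log2 value (y axis, its range set for each gene) in each of the 9 arrays by condition (x axis) for NRF2 and its control and for 4 of its targets, with a symbol for each experiment and a line at the mean of the condition. Only for Keap1 do the antibody arrays (7.25 to 8.17) lie apart from the untreated ones (8.22 to 8.47).

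Glutathione is built from cystine, imported by the product of Slc7a11, through the glutamate-cysteine ligase, made of the catalytic subunit Gclc and the modifier subunit Gclm, and then by Gss. Gsr returns oxidised glutathione to its reduced form. Slc7a11 measured 6.13, 5.27 and 6.30 in untreated cells, 7.51, 5.74 and 6.09 after HGF/SF1, and 6.45, 7.77 and 7.18 after the antibody. The antibody arrays all lay above the untreated ones, by 0.32, 2.496 and 0.88 in experiments 1, 2 and 3, while the HGF/SF1 array of experiment 1 lay above its antibody array. The log2 difference of antibody against untreated was 1.23 (SE 0.51, 2.35-fold, adjusted p = 0.396 in limma), and the same difference was no longer called with the experiment as a fixed block, although it was with a random one. The call was also lost without untreated array 1 or 2, antibody array 2 or 3, or HGF/SF1 array 3 (log2 differences from 0.91 to 1.35), and without experiment 2 or 3 (0.60 and 1.41).

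The ligase subunits did not move alike, and neither passed the test. Gclc measured 10.68, 9.06 and 9.34 in untreated cells, 10.96, 9.54 and 8.87 after HGF/SF1, and 9.44, 8.92 and 8.80 after the antibody. Its values varied more between experiments than between conditions, with a difference of -0.64 (SE 0.57) for antibody against untreated. Against HGF/SF1 it was -0.74, lower in 3 of 3 experiments and called only with the experiment as a fixed block, where its SE was 0.28. Gclm measured 8.68, 8.23 and 8.63 in untreated cells, 9.005, 8.39 and 8.45 after HGF/SF1, and 9.04, 8.78 and 8.58 after the antibody. These groups overlapped, at a difference of 0.28 (SE 0.21) for antibody against untreated. Gss, with -0.30 (SE 0.24), and Gsr, with -0.036 (SE 0.20), were not called either.

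Among the oxidoreductases and related enzymes that serve as standard NRF2 readouts, Nqo1 and Hmox1 did not pass the test. Nqo1, a quinone reductase gene, measured 3.74, 3.61 and 3.56 in untreated cells, 3.81, 3.61 and 3.56 after HGF/SF1, and 3.69, 3.43 and 3.61 after the antibody. This probe set lay below the median of every array, and its groups overlapped. Hmox1, the heme-degrading heme oxygenase, measured 6.77, 6.13 and 7.42 in untreated cells, 8.03, 6.08 and 7.37 after HGF/SF1, and 6.56, 5.75 and 6.83 after the antibody. In each experiment the antibody array was the lowest of the 3, but the groups overlapped. The difference was -0.39 (SE 0.53) against untreated and -0.78 (SE 0.53) against HGF/SF1, and with the experiment as a fixed block the second was called (SE 0.26).

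Srxn1 encodes sulfiredoxin, which restores overoxidised peroxiredoxins. It measured 7.44, 7.44 and 7.94 in untreated cells, 8.01, 7.41 and 8.05 after HGF/SF1, and 7.52, 6.63 and 7.17 after the antibody. The antibody arrays of experiments 2 and 3 lay below every other array, and that of experiment 1 lay among them. The difference was -0.71 (SE 0.27, adjusted p = 0.304 in limma) against HGF/SF1, where it was called, and -0.50 (SE 0.27) against untreated, where it was called with the experiment as a fixed block (SE 0.18) or a random one (SE 0.22) or without antibody array 1 (-0.70), and not in the fit of all arrays without a block. Against HGF/SF1 the call was lost without HGF/SF1 array 1 or 3 or antibody array 2 (-0.62 to -0.48) and without experiment 3 (-0.63). Its other probe sets gave -0.0075, -0.35 and -0.72 against HGF/SF1, and 0.15, -0.31 and -0.56 against untreated, none of them called.

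Ephx1, which encodes the microsomal hydrolase of epoxides, measured 11.35, 11.65 and 10.87 in untreated cells, 11.38, 11.47 and 11.02 after HGF/SF1, and 10.68, 10.53 and 11.02 after the antibody. The antibody arrays were low in experiments 1 and 2, by 0.68 and 1.11 below the untreated ones, and in experiment 3 the antibody array was the higher by 0.16. The fitted difference was -0.54 against untreated cells (SE 0.22, 1.46-fold lower, adjusted p = 0.387 in limma) and -0.54 against HGF/SF1 (SE 0.22, adjusted p = 0.346 in limma). Against untreated cells the call was lost without array 1 of any condition or without untreated or antibody array 2 (-0.54 to -0.36), and without experiment 1 or 2 (-0.48 to -0.26). Against HGF/SF1 it was lost without array 1 of any condition or without HGF/SF1 or antibody array 2 (-0.54 to -0.44), and without experiment 1 or 2 (-0.47 to -0.35).

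The 21 glutathione S-transferase genes fell into 9 with a probe set above the median brightness and 12 below it. The brighter ones were Gsta4, Gstm2, Gstm5, Gsto1, Gstp1, Gstz1, Mgst1, Mgst2 and Mgst3. After the antibody, 0 were called higher and 3 lower, all of them among the brighter 9, where 4.68% of all genes were called higher and 7.92% lower, and 13% of the brighter genes lower. The median over the 21 was -0.018. The other 18 had differences between -0.86 and 0.56 with SE from 0.089 to 0.50. HGF/SF1 against untreated cells called 0 of 21.

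Gsto1, an omega-class enzyme that also reduces dehydroascorbate, gave the smallest p of the members. It measured 13.07, 13.13 and 13.15 in untreated cells, 13.10, 13.07 and 13.20 after HGF/SF1, and 12.72, 12.57 and 12.74 after the antibody. All 3 antibody arrays lay below all 6 others, and the untreated and HGF/SF1 arrays overlapped. The difference was -0.44 against untreated cells (SE 0.092, 1.36-fold lower, adjusted p = 0.174 in limma) and -0.45 against HGF/SF1 (SE 0.092, adjusted p = 0.128 in limma). It was -0.35, -0.57 and -0.42 in experiments 1, 2 and 3 against untreated cells, and both calls held in all 22 alternatives to the processing that were tried. Its other probe set gave -0.23 (SE 0.14) and was not called.

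Gsta4, whose product conjugates the lipid peroxidation product 4-hydroxynonenal, measured 12.18, 12.21 and 11.80 in untreated cells, 11.82, 11.96 and 11.79 after HGF/SF1, and 11.93, 11.26 and 11.30 after the antibody. The antibody arrays of experiments 2 and 3 were the lowest of the 9, and the antibody array of experiment 1 lay above the untreated array of experiment 3. The difference was -0.57 (SE 0.20, 1.48-fold lower, adjusted p = 0.312 in limma), lower in 3 of 3 experiments. The call was lost without untreated array 1 or 2 or antibody array 2 or 3 (-0.51 to -0.45), and without experiment 2 or 3 (-0.60 to -0.38). Mgst3, a microsomal glutathione transferase, measured 10.79, 10.90 and 11.10 in untreated cells, 10.51, 10.90 and 10.82 after HGF/SF1, and 10.42, 10.39 and 10.79 after the antibody. Every experiment showed the lower value after the antibody, although the highest antibody array reached the lowest untreated one. The difference was -0.40 (SE 0.16, 1.32-fold lower, adjusted p = 0.373 in limma), and its dim other probe set gave -0.066. The call was lost without untreated array 2 or 3 or antibody array 1 or 2 (-0.41 to -0.31), and without experiment 1 or 2 (-0.41 to -0.34).

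**Figure D3:**
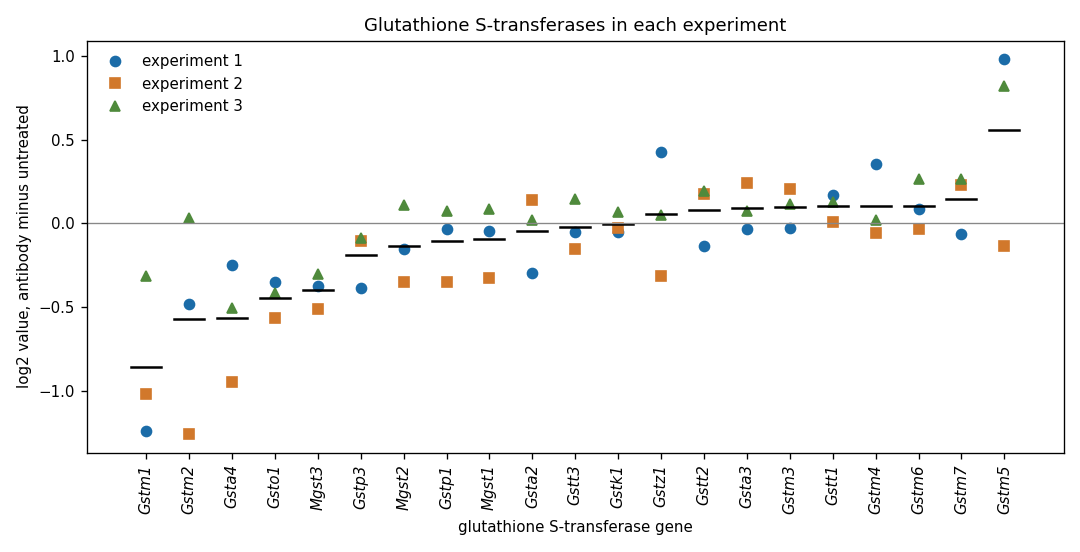
Log2 value after the antibody minus that in untreated cells (y axis) for each of the 21 glutathione S-transferase genes (x axis, ordered by mean), with a symbol for each of the 3 experiments and a bar at the mean. Gsto1 and Mgst3 have 3 close points below 0, while Gstm1, Gstm2 and Gstm5 have the most scattered ones.

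The mu class differed among its members. Its 7 genes lie side by side on chromosome 3 in the RefSeq annotation. Gstm1 had a difference of -0.86 (SE 0.50) and Gstm2 of -0.57 (SE 0.33) for antibody against untreated, whereas Gstm5 had 0.56 (SE 0.25). None of the 3 was called on the 9 arrays as deposited without a block, and all were with the experiment as a fixed block, where their SE were 0.25, 0.23 and 0.21. Gstm5 alone was also called with a random block and when the arrays were centred on their medians (0.61). Without experiment 3, Gstm1 (-1.13) and Gstm2 (-0.87) were called, as was Gstm5 without experiment 2 (0.90). In untreated cells of experiments 1, 2 and 3, Gstm2 measured 9.33, 9.49 and 8.30 and Gstm5 7.92, 8.97 and 8.29. After the antibody, Gstm2 measured 8.84, 8.24 and 8.33 and Gstm5 8.91, 8.83 and 9.12. Gstm2 was lower in experiments 1 and 2 and not in experiment 3, and Gstm5 was higher in experiments 1 and 3 and not in experiment 2. All 4 probe sets of Gstm1 were lower, between -0.86 and -0.12, and none was called. Gstm3, Gstm4, Gstm6 and Gstm7 were dim, with differences from 0.099 to 0.15. Gstm1 too lay below the median brightness, with means of 5.48 in untreated, 4.91 in HGF/SF1 and 4.62 in antibody arrays. Mu-class messages are alike, and a probe set that names 1 of them may also take up RNA of another, so single mu genes are uncertain.

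The other classes showed small differences. Gstp1, the bright pi-class gene, measured between 11.96 and 12.44 in all arrays, at -0.10 (SE 0.15) for antibody against untreated cells. Its dim neighbour Gstp3 was lower in every antibody array than in every untreated one, by 0.19 in the mean (SE 0.097), and was not called. Mgst1 had -0.094 (SE 0.16), Mgst2 -0.13 (SE 0.14) and Gstz1, which acts in tyrosine breakdown, 0.057 (SE 0.30). Gsta2, Gsta3, Gstk1, Gstt1, Gstt2 and Gstt3, all dim, lay between -0.046 and 0.10.

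Conjugates leave the cell through ABC transporters. Abcc3, an exporter of the basolateral membrane that carries glucuronides and bile salts, measured 10.15, 10.25 and 10.36 in untreated cells, 9.96, 10.22 and 10.16 after HGF/SF1, and 9.78, 9.33 and 9.82 after the antibody. All 3 antibody arrays lay below all 6 others. The difference was -0.61 against untreated cells (SE 0.15, 1.53-fold lower, adjusted p = 0.199 in limma) and -0.47 against HGF/SF1 (SE 0.15, adjusted p = 0.245 in limma). The first call held in all 22 alternatives, and the second in 21, failing without experiment 2 (-0.26). Abcc1 had 0.15 (SE 0.28) and the dim Abcc2, the canalicular exporter, 0.010 (SE 0.12) against untreated cells.

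**Figure D4:**
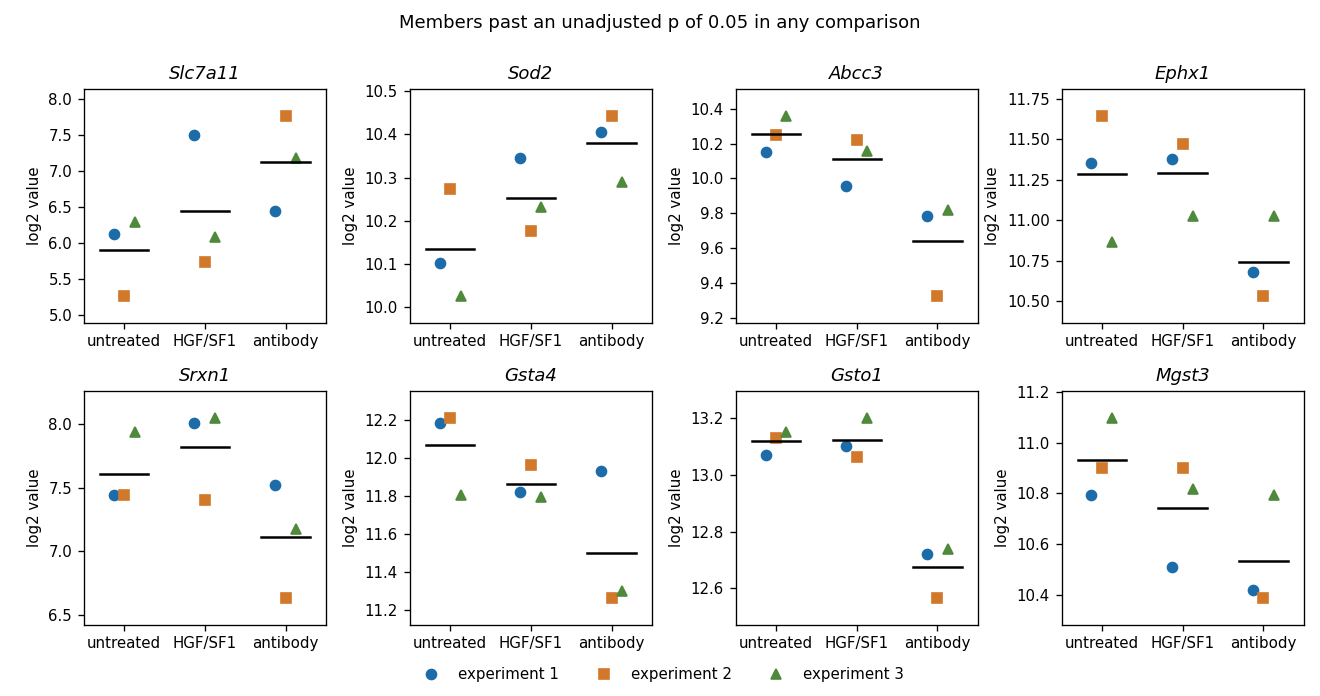
Log2 value (y axis, its range set for each gene) in each of the 9 arrays by condition (x axis) for the 8 members called in any comparison, with a symbol for each experiment and a line at the mean of the condition. The antibody arrays of Gsto1 (12.57 to 12.74) and Abcc3 (9.33 to 9.82) lie below all other arrays.

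Pgd, Tkt and Taldo1 encode enzymes of the pentose phosphate pathway, of which the product of Pgd yields NADPH. By its brightest probe set Pgd was not called, at -0.36 (SE 0.23) against untreated cells and -0.47 (SE 0.23) against HGF/SF1, and with the experiment as a fixed block both were called (SE 0.11), with a random block the second alone. A less bright probe set of Pgd measured 10.26, 10.06 and 10.04 in untreated cells, 10.28, 9.99 and 10.17 after HGF/SF1, and 9.95, 9.38 and 9.60 after the antibody. On this probe set the antibody arrays lay below all others, with a called difference of -0.47 (SE 0.16, adjusted p = 0.289 in limma) against untreated and -0.50 (SE 0.16, adjusted p = 0.236 in limma) against HGF/SF1. All 4 probe sets of Pgd were lower after the antibody in both comparisons, between -0.29 and -0.47 against untreated cells. Tkt had -0.13 (SE 0.13) and Taldo1 0.19 (SE 0.12).

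Of the enzymes that remove superoxide and peroxide, Sod2 alone was called. It measured 10.10, 10.27 and 10.03 in untreated cells, 10.35, 10.18 and 10.23 after HGF/SF1, and 10.41, 10.44 and 10.29 after the antibody. The antibody arrays lay just above the untreated ones, and the HGF/SF1 arrays overlapped both groups. The difference was 0.25 (SE 0.10, 1.19-fold, adjusted p = 0.403 in limma), and the other probe sets of Sod2 gave 0.12 and -0.077. The call was lost without array 1 or 3 of untreated cells, array 2 or 3 of HGF/SF1 or array 1 or 2 of the antibody (0.19 to 0.25), and without any 1 experiment (0.22 to 0.28). Sod1, the cytosolic enzyme, had -0.11 (SE 0.69) and Cat, the catalase gene, 0.075 (SE 0.30), both with wide spread between experiments. The less bright probe set of Sod1 averaged 7.17 in untreated and 6.37 in antibody arrays, with antibody array 3 at 5.04, and was not called. Fth1, the heavy chain of the iron store ferritin, had 0.10 (SE 0.13).

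Counted by separation of the arrays alone, 2 members (Slc7a11 and Sod2) lay higher in all antibody arrays than in all untreated ones and 4 (Abcc3, Gsto1, Gstp3 and Keap1) lower. Of all genes, 6.21% and 8.8% did so, which are shares close to those of the members. Against HGF/SF1, 3 members (Abcc3, Ephx1 and Gsto1) lay lower without overlap and 0 higher, beside 8.74% and 5.72% of all genes.

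HGF/SF1 against untreated cells called 0 of 44 members in either direction in limma, with and without the experiment as a block, and at the adjusted threshold. In the fit without a block, 0.533% of all genes were called higher and 0.307% lower, and with the fixed block 1% and 0.662%. With 1 array or experiment left out, up to 1 member was called in each direction, namely Gstm7 without untreated array 1 (0.33) or experiment 1 (0.29), Gstm5 without untreated array 2 (0.52), Gstm1 without untreated array 3 (-1.06) and Gsr without HGF/SF1 array 3 (-0.47). The members' differences lay between -0.57 for Gstm1 (SE 0.50) and 0.55 for Slc7a11 (SE 0.51), with a median of 0.025 beside 0.0080 for all genes. In experiment 1 alone, HGF/SF1 was above untreated by 1.37 for Slc7a11, 1.25 for Hmox1, 0.64 for Nfe2l1, 0.58 for Sqstm1 and 0.57 for Srxn1. In experiments 2 and 3 these genes lay between -0.21 and 0.47. Other members fell in experiment 1, such as Gstm1 from 6.46 to 5.15 and Keap1 from 8.37 to 7.69. Over the 44 members its median was 0.032, with 16 below 0, beside 0.0085 over all genes. The 5 higher genes were picked after their values were seen, and a single array carries each value.

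Antibody against HGF/SF1, which uses the same antibody arrays as the comparison with untreated cells, called 0 members higher and 4 lower, namely Abcc3, Ephx1, Gsto1 and Srxn1. Of all genes, 5.19% were called higher and 8.96% lower, and the 4 of 44 are near the second share. With the experiment as a fixed block, 0 were called higher and 7 lower, beside 8.73% and 11.6% of all genes, and the added members were Gclc, Hmox1 and Pgd. With a random block, 0 were called higher and 5 lower, beside 7.47% and 11.4% of all genes, and Pgd was the member added. None passed the adjusted threshold in limma, whereas 0.0161% of genes were called higher and 0.00807% lower at it. The members' median was -0.080, beside -0.010 for all genes.

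Other genes of the pathway were counted from 3 lists. After the antibody, 4.68% of all genes were called higher and 7.92% lower, and these shares stand beside each count that follows. Of 22 partners and regulators of NRF2, 19 were measured, and 1 was called higher and 4 lower after the antibody. Maff, a small MAF protein that pairs with NRF2, measured 7.77, 7.88 and 8.40 in untreated cells, 7.95, 8.17 and 8.33 after HGF/SF1, and 8.54, 9.11 and 9.51 after the antibody. Its relative Mafk measured 8.36, 8.22 and 8.55, then 8.89, 8.25 and 8.39, and 8.03, 7.23 and 7.62 in the same order. The antibody arrays of Maff lay above, and those of Mafk below, all the others. The differences were 1.03 for Maff (SE 0.26, adjusted p = 0.207 in limma) and -0.75 for Mafk (SE 0.23, adjusted p = 0.270 in limma), the calls being lost only without experiment 2 (0.94) and without experiment 3 (-0.66), respectively. The others called lower were Syvn1, a ubiquitin ligase of the endoplasmic reticulum that acts on NRF2, at -1.03 (SE 0.35), the protein kinase gene Prkcd at -0.42 (SE 0.17), and Dcaf11, an adaptor of a ubiquitin ligase, at -0.40 (SE 0.17). These 3 calls against untreated cells depended on single arrays. The call of Syvn1 was lost without antibody array 2 or untreated array 3 (-0.88 to -0.76), that of Prkcd without any 1 untreated array or antibody array 2 (-0.45 to -0.23), and that of Dcaf11 without untreated array 1 or 2, HGF/SF1 array 2 or antibody array 2 or 3 (-0.40 to -0.33). For antibody against HGF/SF1, 1 of the 19 was called higher and 4 lower, beside 5.19% and 8.96% of all genes. There Dcaf11 (-0.59) and Mafk (-0.88) kept their calls in all 22 alternatives to the processing.

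Of 38 further NRF2 targets, 30 were measured, and 0 were called higher and 1 lower after the antibody. That gene was Psmb5, a proteasome subunit, at -0.27 (SE 0.12), and its call was lost without untreated or antibody array 2 or 3 or any 1 HGF/SF1 array (-0.27 to -0.21). Txnrd1, the thioredoxin reductase gene and a frequent NRF2 readout, had a difference of 0.46 (SE 0.27), higher in 3 of 3 experiments and called with the experiment as a fixed block but not without it. Trim16 and Aldh7a1 followed, at -0.42 (SE 0.25) and -0.33 (SE 0.24). Aldh7a1 was dim, at 4.13 to 5.12 over the arrays, and 2 of its 3 probe sets were higher after the antibody. Of 32 genes of cysteine supply and other glutathione enzymes, 26 were measured, and 1 was called higher and 0 lower. Glrx, the glutaredoxin that removes glutathione from proteins, measured 7.38, 6.84 and 6.94 in untreated cells, 7.55, 7.01 and 6.99 after HGF/SF1, and 8.03, 7.48 and 7.47 after the antibody. It was higher in 3 of 3 experiments, by 0.61 (SE 0.23, adjusted p = 0.346 in limma), and both of its probe sets were called. The call was lost without antibody array 1 or untreated array 2 or 3 (0.42 to 0.55), and without experiment 2 or 3 (0.59 and 0.65). Gfer, Glo1 and Hpgds, next by p, had 0.44 (SE 0.19), -0.32 (SE 0.15) and -0.86 (SE 0.44), of which Gfer was called with either kind of block. After HGF/SF1, 0 genes of the 3 lists were called by their brightest probe set, beside 0.533% of all genes higher and 0.307% lower. By that probe set the smallest p belonged to Prkcd and Dpp3 (-0.24 and 0.14), to Slc48a1 and Cbr1 (-0.25 and 0.22), and to Chac1 and Cbs (0.35 and 0.17). A less bright probe set of Dcaf11 was called higher. For antibody against HGF/SF1, 1 of the 30 targets was called higher and 2 lower, beside 5.19% and 8.96% of all genes. Of the 26 other genes, 0 were called by their brightest probe set. By less bright ones, Slc1a4 was called lower on 2 of its 3 probe sets and Glrx higher on 1 of 2. Against untreated cells, 1 less bright probe set of Slc1a4 was called lower.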

How the data were processed

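RNA of 9 MLP29 cultures was measured on Affymetrix Mouse430A_2 arrays. The deposited log2 values, 1 per probe set, are the authors' own, made in affylmGUI after an rma background step. The normalization between arrays is not given in the sources used here, and scanner intensities were not used. Precision is limited by the 3 arrays per condition.

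Of 22690 probe sets, 64 controls were left out. In the platform annotation 20380 of the rest carry 1 gene name, 691 carry several names and 1555 carry none. By gene identifier, 20351 were found in RefSeq. The members have 69 probe sets, and 18 members have more than 1. Group means were fitted with limma 3.58.1 in R 4.3.3 to all 9 arrays, with variances moderated by eBayes (6 residual and 2.39 prior degrees of freedom), two-sided tests and Benjamini-Hochberg adjustment over 22626 probe sets. The fit was tested on simulated data that held no effect of experiment, so this test cannot show how calls depend on a block. Figures were drawn with matplotlib 3.10.9.

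Experiments were read from the sample titles, which pair 1 array per condition. After subtraction of group means, r was 0.0958 to 0.591 within experiments and -0.484 to 0.0308 between arrays that share neither experiment nor condition. Deviations cancel out within each condition, so these ranges are not independent and the negative values are partly built in. The study describes 3 independent experiments.

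All members are named, with values per array for called members, for Nfe2l2, Keap1, Nqo1, Hmox1, Gclc, Gclm and Slc7a11, and for a called probe set of Pgd that is not the brightest. Of other lists, at most 4 genes were named by smallest p for the antibody and at most 2 for HGF/SF1. Gstm2 and Gstm5 values, Dcaf11 and Slc1a4 were added after results were seen. Members, lists and rules were chosen with earlier results of these data known. The 22 alternatives were the experiment as a fixed or random block, centring or quantile normalization of the arrays, a brightness filter, other ways to choose a probe set, unmoderated variances, only the compared groups, and leaving out each array or experiment. The adjusted threshold was applied in addition.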

Additional observations from a re-analysis of the deposited data

How the results depend on the processing

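Gsto1 against both other groups and Abcc3 against untreated cells kept direction and call in all 22 alternatives, and Abcc3 against HGF/SF1 in 21. Against untreated cells, Gsta4 kept its call in 16, Mgst3 and Slc7a11 in 13 each, Ephx1 in 12 and Sod2 in 8. Against HGF/SF1, Srxn1 kept it in 14 and Ephx1 in 13. Members called lower after the antibody against untreated cells numbered 5, 9 with the replicate block as a fixed term, 6 with it as a random term, 3 with arrays centred and 0 at the adjusted threshold. Those called higher numbered 2, 3 with the random block, 0 at the adjusted threshold, and 1 with quantile normalization, the brightness filter, the mean of all probe sets, the most variable probe set, unmoderated variances or only the compared groups. Against HGF/SF1, those called lower numbered 4, 7 with the fixed replicate block, 5 with the random one, 2 with unmoderated variances and 0 at the adjusted threshold, and the median of the members moved from -0.080 to -0.16 with the brightness filter. Beyond the calls of Gstm1, Gstm2, Gstm5, Pgd, Srxn1 and Slc7a11 against untreated cells and of Gclc, Hmox1 and Pgd against HGF/SF1, the fixed block changed no call of a member. With the most variable probe set of a gene, the direction turned for Sod2 (-0.077), Cand1 (-0.68) and Cul3 (-0.62) against untreated cells, and for Cand1 (-0.55) and Rxra (0.61) after the antibody against HGF/SF1. On these probe sets Cand1, Cul3 and Rxra were called, which they were not on their brightest ones, and Sod2 was not called.

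With 1 array or 1 experiment left out, members called after the antibody against untreated cells numbered 0 to 2 higher (0 without antibody array 2, HGF/SF1 array 3 or experiment 3) and 2 to 7 lower (2 without untreated array 2, antibody array 2 or experiment 2, and 7 without experiment 3), with a median between -0.091 and 0.0029. For HGF/SF1 against untreated cells they numbered 0 to 1 in each direction, with a median between -0.036 and 0.081. The 1 higher member came without untreated array 1 or 2 or experiment 1, and the 1 lower without untreated or HGF/SF1 array 3. For antibody against HGF/SF1 they numbered 0 to 1 higher (1 without HGF/SF1 array 1 or 3 or experiment 1 or 2) and 2 to 6 lower (2 without HGF/SF1 array 1 or antibody array 2, and 6 without antibody array 3), with a median between -0.11 and -0.017. The causes were not tested. Shares of all genes were not counted with arrays or experiments left out, with centred or quantile-normalized arrays, or with other choices of probe set. Dim probe sets, 14 of the 44, limit what can be seen of small changes.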

Other observations

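Some probe sets name several genes of the same families and were left out of the members. Of 3 probe sets shared by Ftl1, the ferritin light chain gene, and other genes, the log2 difference of antibody against untreated cells was 0.42 (SE 0.21), 0.47 (SE 0.25) and 0.30 (SE 0.13), and the last of these was called in limma (adjusted p = 0.420) without a block but not with the experiment as a fixed block. In experiment 1 the same probe sets had -0.073, -0.10 and -0.0046, and in experiments 2 and 3 between 0.41 and 0.97.

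A probe set shared by Gsta1, Gsta2 and Gm3776 measured 7.27, 5.53 and 6.68 in untreated cells, 9.12, 5.50 and 7.44 after HGF/SF1, and 6.68, 6.39 and 5.44 after the antibody. It varied more between experiments than between conditions and was not called in any comparison.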
